A study of Homo sapiens with 32 samples.

Results

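Interferon-stimulated genes (ISGs) are the genes that cells switch on when interferon reaches them. A fixed set of 41 of them was followed here in HGrC1, an immortalized human line derived from granulosa cells, which line the follicle and nourish the egg. Its members were chosen by name, from textbook knowledge of the interferon response and with earlier results of these data known. Each of the 41 had values among the 18583 genes measured. The study exposed the cells to perfluorooctane sulfonic acid (PFOS), a persistent fluorinated surfactant, with concentrations of 0.01 µM, 0.1 µM and 1 µM and a vehicle control of 0.05% DMSO. The cells of 4 separately thawed vials were each divided into the 4 treatments, and each culture gave a library after 6 and after 12 weeks, which makes 8 groups of n = 4 libraries. All groups grew with 10% FBS, and PFOS was dosed again at each passage. The sample labels also give 100 nM estradiol for all groups, whereas the published methods name testosterone, and which hormone was present is uncertain. The line is 1 immortalized cell source, so its vials are repeats of a culture and not separate donors. Cultures at 12 weeks had also been passaged more often, and time, passage number and the harvest cannot be told apart.

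Type I interferons bind a receptor of the subunits IFNAR1 and IFNAR2, whose kinases JAK1 and TYK2 phosphorylate STAT proteins. STAT2 and IRF9 belong to the complex ISGF3, which binds the interferon-stimulated response element (ISRE) in the promoters of ISGs. Signals of interferon gamma act through a different element, the gamma-activated site (GAS). The products sense viral RNA, degrade it, block its translation or hold virus particles at membranes, and many cells keep a low level of them without infection.

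Total counts per library lay between 17907057 and 18553350. Among the markers of granulosa cells, GATA4 (2040 to 2816 counts), WT1 (1012 to 1450) and AMH (191 to 319) were present in every library, whereas the aromatase gene CYP19A1 had 0 to 1 counts, AMHR2 0 to 3 and FOXL2 10 to 37. PTPRC, carried by all white blood cells, had 0 to 8 counts per library, and CD3E, LILRA4 and CLEC4C, of T cells and plasmacytoid dendritic cells, had 0 in all libraries. The liver transcripts ALB, AFP, AHSG, APOB and TTR together had 0 to 1 counts in the control and 0.01 µM libraries at 6 weeks, 85 to 129 in those with more PFOS and 68 to 165 at 12 weeks, apart from replicate 3 of the 12-week control with 806. This last library was also left out. APOA1, a further liver marker, was present in every library (41 to 118 counts). It had 41 to 85 counts in the control and 59 to 102 at 0.01 µM after 6 weeks. In bulk RNA, fewer cells that express a gene and less RNA per cell cannot be told apart.

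Most promoters that could be read carried the motif that names the response. RefSeq promoter windows (GRCh38.p14) were matched for 33 members. MX2, IFIT2, TRIM22, IFITM2, OAS2, IRF7, OASL and USP18 had no entry. The 250 bases upstream of the start were searched on both strands for the core of the ISRE, GAAANNGAAA, and for a GAS-type motif, TTCNNNGAA. The first was found in 24 of 33 members (72.7%) and in 3.71% of the 27305 genes with a window. The second was found in 11 members (33.3%) against 8.09% of the genes. A match is a run of letters and not a measured binding site. The stretches below hold ISRE-type matches, in capitals, and are read 5′ to 3′ on the strand of the gene. They are examples from the members that fell between 6 and 12 weeks in at least 1 group. Further such members with a match, OAS3 and IFI27 among them, are not printed.
ISG15, chr1:1013376-1013407, strand +: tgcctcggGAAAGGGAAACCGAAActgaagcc
IFI6, chr1:27672268-27672356, strand -: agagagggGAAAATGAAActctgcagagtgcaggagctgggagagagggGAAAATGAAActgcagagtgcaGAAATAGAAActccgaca
IFIT1, chr10:89392499-89392537, strand +: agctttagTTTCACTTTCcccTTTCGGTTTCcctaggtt
IFIT3, chr10:89327833-89327892, strand +: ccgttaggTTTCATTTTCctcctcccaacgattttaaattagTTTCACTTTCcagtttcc
IFITM1, chr11:313992-314017, strand +: aacagcagGAAATAGAAActtaagag
IFITM3, chr11:320878-320920, strand -: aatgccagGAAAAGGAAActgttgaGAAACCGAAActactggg
The same motif stood before the starts of IFIT5, EPSTI1 and HERC5 (3 matches, not printed), which did not pass the test in any group.
IFIT5, chr10:89414515-89414566, strand +: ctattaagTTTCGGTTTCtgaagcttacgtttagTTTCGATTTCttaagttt
EPSTI1, chr13:42992274-42992299, strand -: gattctgaGAAACCGAAActcagctg
IRF1, OAS1 and IRF9 (not printed), which fell in all 4 groups, had the GAS-type motif, in capitals, and no ISRE-type match in the window.
IRF1, chr5:132490881-132490905, strand -: agcctgatTTCCCCGAAatgacggc
OAS1, chr12:112906786-112906810, strand +: gagcagagTTCAGAGAAaggctggg

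In IFI6 the ISRE-type motif occurred 3 times within 89 bases, and in ISG15 2 matches shared their middle GAAA. In IFIT1, IFIT3 and IFIT5 the matches were on the opposite strand and read TTTC. Of the 22 tested members with an ISRE-type match, 10 were lower at 12 weeks in all 4 groups and 3 in none. Of the 8 without one, 6 were lower in all 4 groups and 0 in none. These counts are a description, and no test was made.

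Levels per length of transcript, in TPM (transcript abundance scaled for length and depth), spread over a wide range. 5 members had a mean above 100 TPM over the 32 libraries, 13 lay between 10 and 100, 15 between 1 and 10, and 8 under 1. IFITM3, a membrane protein that blocks fusion of viruses in endosomes, led with 1741 ± 174 TPM at 6 weeks and 1521 ± 132 at 12 weeks (mean ± SD, n = 16). It was followed by LGALS3BP, a secreted glycoprotein, with 401 ± 19.9 and 315 ± 24.4 TPM, below the lowest IFITM3 library at both times. IFITM2 (336 ± 28.7 and 325 ± 39.8 TPM) and BST2, the tetherin that holds budding virions (297 ± 15.97 and 272 ± 11.9 TPM), came next. The libraries of LGALS3BP, IFITM2 and BST2 overlapped at 12 weeks, so their order there lies within the spread. IFI27 had 195 ± 18.9 TPM at 6 weeks and ISG15, a ubiquitin-like modifier, 74.1 ± 8.25.

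At the other end, RSAD2 (viperin, which makes a chain-terminating nucleotide) and its neighbour CMPK2 had 0 to 3 counts in every library. IFI44L had 0 to 11 counts and OAS2, one of the synthases of the RNase L activator 2-5A, 1 to 10. These 4 members were not tested in any comparison. OAS1, MX2 and IFI44 were tested at 6 weeks and between the times but not at 12 weeks, where counts were too low. So 37 members were tested at 6 weeks and 34 at 12 weeks. Between the times, OAS1, MX2 and IFI44 passed the filter on low counts only through the 6-week libraries, where they were higher. Such a filter favours a fall. Reads of IFITM2 and IFITM3, near-identical neighbours on chromosome 11, were shared by estimate (their counts were not whole in 31 of 32 libraries). So were those of IRF1 and EPSTI1 (in 32) and of MX1 (in 23), and the values of all of these are less certain for that. The files place IRF7, IRF9 and IFI27 on alternate scaffolds of the assembly, so no position is given for them.

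The main change was between the times. From 6 to 12 weeks, ISGs fell in the control and at each concentration of PFOS, and none rose past the test as fitted here. With the vial or the culture as a block, IFITM2 was higher in the control (log2 change 0.19 in both, adjusted p = 0.0494 and 0.0488). At an adjusted p of at most 0.05 (edgeR's quasi-likelihood test, Benjamini-Hochberg over all 12988 genes tested), 19 of 37 members were lower in the control (18 without replicate 3 of the 12-week control), 24 at 0.01 µM, 30 at 0.1 µM and 25 at 1 µM. Of all genes tested, 36.6% passed in either direction in the control and 19.3% were lower. The corresponding shares were 42.7% and 21.3% at 0.01 µM, 40.3% and 20.6% at 0.1 µM, and 30.1% and 15.9% at 1 µM. The median log2 change of the 37 members was −0.23, −0.33, −0.40 and −0.28 in the same order, while the median over all genes lay between 0.00404 and 0.0104. 19 members fell in all 4 groups, as did 9.87% of all genes tested, 3 in 3, 3 in 2, 7 in 1 and 5 in none. Each culture, matched by its replicate number, can be set against itself, and 16 members were lower at 12 weeks in all 16 cultures, as were 11.1% of all genes tested. A change of 2-fold or more that passed the test was seen for 3, 5, 4 and 5 members, and for 3.32%, 3.49%, 3.83% and 3.09% of all genes. OAS1, MX2 and IFI44, whose falls the filter on low counts favours, are among the 19 members that fell in all 4 groups. They are all 3 of the 2-fold changes in the control and are among those at each PFOS concentration. The counts of 2-fold changes thus rest in part on that filter.

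**Figure D1:**
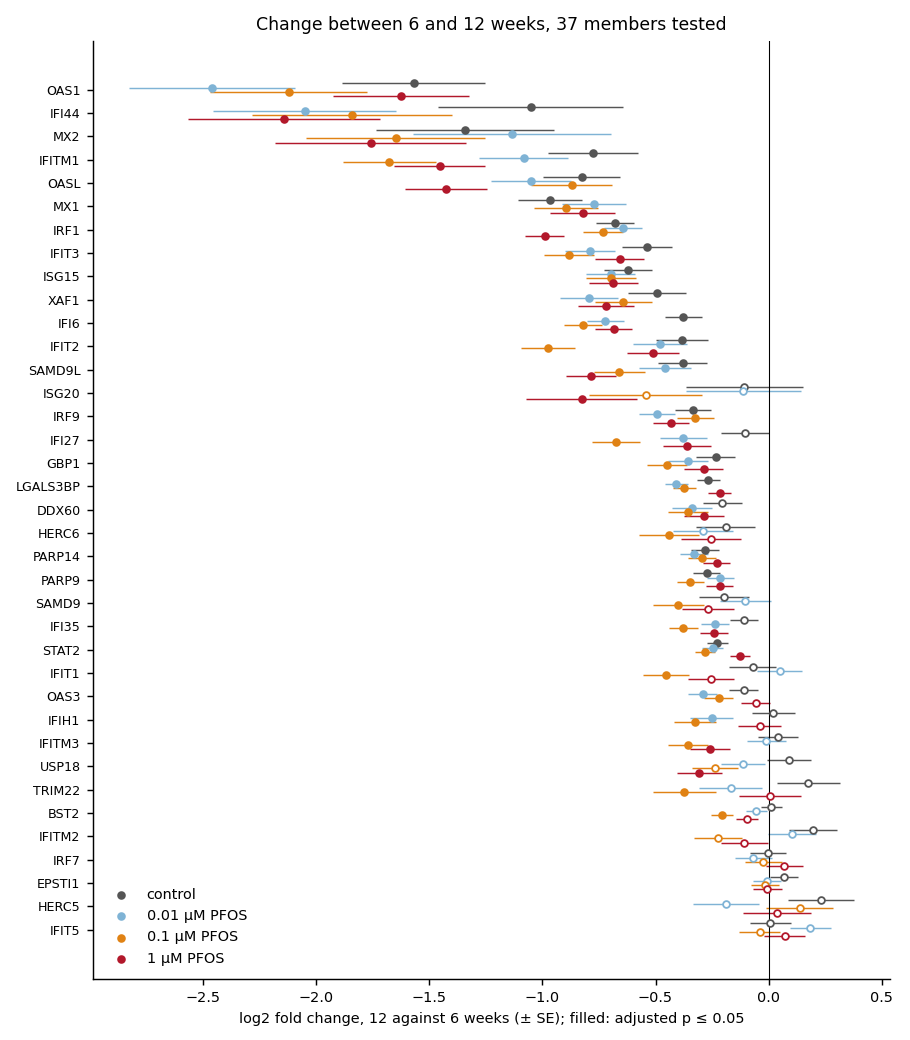
Log2 fold change of 12 against 6 weeks for the 37 members tested, one colour per treatment, with bars of 1 SE and filled points at an adjusted p of at most 0.05. Points lie left of 0 for most members, and OAS1, IFI44, MX2 and IFITM1 lie farthest. OAS1, IFI44 and MX2 passed the filter on low counts only through the 6-week libraries. IFIT5, HERC5, EPSTI1, IRF7 and IFITM2 have open points in all 4 treatments.

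Among the membrane effectors, IFITM1, which restricts virus entry at the cell surface (chr11:314040-315272), changed most. It had 20.4, 21.7, 16.5 and 12.1 CPM (counts scaled to library size) in the 4 control libraries at 6 weeks and 10.3, 8.89, 12.6 and 9.50 at 12 weeks. The PFOS libraries held 17.3 to 27.2 (median 21.3) CPM at 6 weeks and 4.91 to 13.1 (median 8.23) at 12 weeks. The 12-week libraries were below those of 6 weeks at each concentration, and in the control they overlapped only at replicate 4 of 6 weeks. The log2 change was −0.78 ± 0.20 in the control, −1.08 ± 0.20 at 0.01 µM, −1.68 ± 0.21 at 0.1 µM and −1.45 ± 0.20 at 1 µM (adjusted p 4.62e-07 to 0.00334). Without replicate 2 the change in the control was −0.60 with an adjusted p of 0.0534. Of the other 3 membrane effectors, IFITM3, with 366, 359, 379 and 301 CPM in the control at 6 weeks and 333, 359.6, 395 and 358 at 12 weeks, passed at 0.1 µM (−0.35 ± 0.088 SE, adjusted p = 0.00204) and 1 µM (−0.26 ± 0.088 SE, adjusted p = 0.0264), BST2 at 0.1 µM alone (−0.21 ± 0.048 SE, adjusted p = 7.00e-04), and IFITM2 in no group. The difference between groups in these changes was tested as an interaction, given further on, and passed for no member.

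OAS1 (chr12:112906962-112933219), a synthase of 2-5A, had few reads. It passed the filter on low counts only through the 6-week libraries, where it was higher, and that filter favours a fall. In the control and at 0.01 and 0.1 µM its fall was the steepest of the members tested. The control libraries held 1.37, 1.63, 1.54 and 1.21 CPM at 6 weeks and 0.388, 0.331, 0.819 and 0.382 at 12 weeks, with replicate 3 highest among the latter. The PFOS libraries held 1.06 to 2.16 (median 1.51) CPM at 6 weeks and 0.0554 to 0.824 (median 0.303) at 12 weeks, so the times did not overlap in any treatment. The log2 change was −1.57 ± 0.32 in the control, −2.46 ± 0.37 at 0.01 µM, −2.12 ± 0.35 at 0.1 µM and −1.62 ± 0.30 at 1 µM (adjusted p 1.62e-06 to 1.91e-04). At 12 weeks these are 1 to 15 counts per library, which sets the width of the errors.

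OASL, a relative without synthase activity that aids RNA sensing, fell as well. It had 5.96, 5.01, 5.12 and 4.30 CPM in the control at 6 weeks and 4.60, 2.76, 2.24 and 1.91 at 12 weeks, where replicate 1 still lay within the range of 6 weeks. The PFOS libraries fell from 4.08 to 6.25 (median 4.89) to 1.59 to 2.87 (median 2.27) CPM without overlap, and the log2 change was −0.83 ± 0.17 in the control, −1.05 ± 0.18 at 0.01 µM, −0.87 ± 0.18 at 0.1 µM and −1.43 ± 0.18 at 1 µM (adjusted p 1.92e-07 to 2.55e-04). OAS3, the synthase with the highest level, kept 60.7, 60.1, 58.6 and 62.8 CPM in the control at 6 weeks and 62.5, 50.3, 57.7 and 53.7 at 12 weeks, which overlapped. It was lower at 0.01 µM (−0.29 ± 0.064 SE, adjusted p = 3.74e-04) and 0.1 µM (−0.22 ± 0.064 SE, adjusted p = 0.00571).

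The IFIT proteins bind foreign or uncapped RNA, and their genes lie side by side on chromosome 10. IFIT3 (chr10:89327997-89340968) had 16.02, 14.6, 13.6 and 12.5 CPM in the control at 6 weeks and 9.20, 8.94, 10.3 and 10.5 at 12 weeks. IFIT2 (chr10:89302046-89309271) had 7.33, 8.39, 7.11 and 6.18 and 4.76, 4.91, 6.39 and 6.17 CPM. For IFIT3 the 2 times did not overlap in the control, and for IFIT2 only replicate 3 of 12 weeks reached into the range of 6 weeks. IFIT3 changed by −0.54 ± 0.11 in the control, −0.79 ± 0.11 at 0.01 µM, −0.88 ± 0.11 at 0.1 µM and −0.66 ± 0.11 at 1 µM on the log2 scale (adjusted p 8.08e-08 to 2.01e-04), and IFIT2 by −0.38 ± 0.12 in the control, −0.48 ± 0.12 at 0.01 µM, −0.98 ± 0.12 at 0.1 µM and −0.51 ± 0.11 at 1 µM (adjusted p 5.69e-08 to 0.00905). IFIT1 passed at 0.1 µM (−0.45 ± 0.10 SE, adjusted p = 4.84e-04), and IFIT5, the neighbour of IFIT1 with 2 ISRE-type matches, in no group: its log2 change was 0.0077 ± 0.090 in the control, 0.18 ± 0.090 at 0.01 µM, −0.041 ± 0.090 at 0.1 µM and 0.070 ± 0.090 at 1 µM. ISG20, a 3′ exonuclease, had 9 to 33 counts per library and passed at 1 µM (−0.83 ± 0.25 SE, adjusted p = 0.0101), where its libraries held 1.33, 1.05, 1.82 and 1.46 CPM at 6 weeks and 0.989, 0.704, 0.878 and 0.607 at 12 weeks. Without replicate 3 its adjusted p was 0.0767.

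The transcription factors of the pathway fell in part. IRF1 (chr5:132481609-132490773), which acts downstream of interferon gamma, had 54.3, 52.6, 49.5 and 48.4 CPM in the control at 6 weeks and 31.5, 32.1, 31.8 and 32.4 at 12 weeks. The PFOS libraries held 42.5 to 57.2 (median 51.5) CPM and then 23.3 to 37.3 (median 28.1), and the times did not overlap in any treatment. Its log2 change was −0.68 ± 0.085 in the control, −0.64 ± 0.084 at 0.01 µM, −0.73 ± 0.088 at 0.1 µM and −0.99 ± 0.086 at 1 µM (adjusted p 4.55e-10 to 3.56e-07). IRF9 and STAT2, the DNA-binding and activating parts of ISGF3, changed by less, IRF9 by −0.33 ± 0.080 in the control, −0.49 ± 0.080 at 0.01 µM, −0.32 ± 0.080 at 0.1 µM and −0.43 ± 0.079 at 1 µM and STAT2 by −0.23 ± 0.045 in the control, −0.25 ± 0.045 at 0.01 µM, −0.28 ± 0.044 at 0.1 µM and −0.13 ± 0.045 at 1 µM, and both passed in all 4 groups (adjusted p 6.07e-06 to 0.00148 and 4.67e-06 to 0.0295). IRF7, which drives genes of interferon alpha, had 26.2, 24.6, 24.5 and 29.3 CPM in the control at 6 weeks and 27.1, 26.7, 25.4 and 25.2 at 12 weeks, which overlapped, and it passed in no group.

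The dynamin-like GTPases fell, 3 of 3 in each group, and of these MX1 and MX2 trap viral ribonucleoproteins or capsids. MX2 passed the filter on low counts only through the 6-week libraries. MX1 (chr21:41420558-41459214) had 8.80, 8.01, 9.37 and 6.24 CPM in the control at 6 weeks and 4.71, 4.36, 3.88 and 3.66 at 12 weeks, without overlap, and its log2 change was −0.96 ± 0.14 in the control, −0.77 ± 0.14 at 0.01 µM, −0.89 ± 0.14 at 0.1 µM and −0.82 ± 0.14 at 1 µM (adjusted p 1.66e-06 to 4.47e-05). GBP1 had 43.5, 44.6, 43.96 and 38.97 CPM in the control at 6 weeks and 32.97, 28.4, 42.8 and 41.3 at 12 weeks, where replicates 3 and 4 stayed at the level of 6 weeks, and its change of −0.23 in the control had an adjusted p of 0.0332. MX2 rested on 2 to 20 counts per library and changed by −1.34 ± 0.39 in the control, −1.13 ± 0.44 at 0.01 µM, −1.65 ± 0.40 at 0.1 µM and −1.76 ± 0.42 at 1 µM.

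In the ISG15 system, the modifier itself fell and its enzymes mostly did not pass. ISG15 (chr1:1013497-1014540) had 18.6, 18.5, 15.4 and 18.7 CPM in the control at 6 weeks and 11.97, 9.38, 12.1 and 12.8 at 12 weeks. The PFOS libraries held 13.1 to 20.7 (median 17.9) and 9.50 to 13.1 (median 10.9) CPM, and within each treatment no library of 12 weeks reached the lowest of 6 weeks. The log2 change of ISG15 was −0.62 ± 0.11 in the control, −0.70 ± 0.11 at 0.01 µM, −0.70 ± 0.11 at 0.1 µM and −0.69 ± 0.11 at 1 µM (adjusted p 2.75e-06 to 2.31e-05). HERC5, the main ligase of ISG15 in humans, passed in no group (log2 change 0.23 ± 0.15 in the control, −0.19 ± 0.15 at 0.01 µM, 0.14 ± 0.15 at 0.1 µM and 0.036 ± 0.15 at 1 µM), HERC6 at 0.1 µM (−0.44 ± 0.13 SE, adjusted p = 0.00774) and USP18, which removes ISG15 and dampens the receptor, at 1 µM (−0.31 ± 0.10 SE, adjusted p = 0.0180).

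Of the remaining members, the ADP-ribosyltransferases PARP9 and PARP14 fell slightly in all 4 groups. PARP9 had 40.7, 36.4, 35.3 and 31.6 CPM in the control at 6 weeks and 29.98, 29.3, 30.4 and 29.5 at 12 weeks, without overlap (log2 change −0.27 ± 0.060 SE, adjusted p = 5.10e-04). LGALS3BP went from 493, 499, 473 and 509.9 to 379.6, 390.4, 457 and 414 CPM in the control (−0.27 ± 0.051 SE, adjusted p = 8.63e-05). IFI6 (chr1:27666064-27672192), a mitochondrial and reticulum protein that protects from cell death, had 23.7, 22.5, 22.97 and 20.6 CPM in the control at 6 weeks and 16.7, 15.7, 18.4 and 18.3 at 12 weeks. It changed by −0.38 ± 0.082 in the control, −0.72 ± 0.082 at 0.01 µM, −0.82 ± 0.083 at 0.1 µM and −0.68 ± 0.082 at 1 µM (adjusted p 1.09e-09 to 4.18e-04), and within each treatment no library of 12 weeks reached those of 6 weeks. XAF1, a proapoptotic partner of XIAP, had 8.37, 9.42, 8.48 and 7.89 and then 5.71, 5.80, 5.57 and 7.21 CPM in the control, and changed by −0.49 ± 0.13 in the control, −0.79 ± 0.13 at 0.01 µM, −0.64 ± 0.13 at 0.1 µM and −0.72 ± 0.12 at 1 µM (adjusted p 5.04e-06 to 0.00265). The restriction factor SAMD9L fell in all 4 groups, from −0.79 at 1 µM to −0.38 in the control, and its paralog SAMD9 passed at 0.1 µM (−0.40 ± 0.11 SE, adjusted p = 0.00442), where it went from 8.54, 9.23, 10.2 and 8.77 to 5.62, 8.50, 6.26 and 7.51 CPM. IFI44 fell in all 4 groups with 1 to 21 counts per library, and passed the filter on low counts only through the 6-week libraries. IFI27 and IFI35 passed at each PFOS concentration, with log2 changes in the control of −0.11 ± 0.11 SE, adjusted p = 0.458 and −0.11 ± 0.063 SE, adjusted p = 0.181. DDX60 did so too, and IFIH1 (MDA5, a sensor of long double-stranded RNA) passed at 0.01 and 0.1 µM. IFIH1 had 9.35, 10.5, 9.31 and 9.94 CPM in the control at 6 weeks and 10.2, 9.16, 9.94 and 10.3 at 12 weeks. TRIM22 passed at 0.1 µM (−0.37 ± 0.14 SE, adjusted p = 0.0333) and EPSTI1 in no group, with 29.97, 31.4, 29.6 and 29.97 CPM in the control at 6 weeks and 30.4, 34.4, 30.6 and 31.5 at 12 weeks.

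Markers of other cells also moved between the times. CD14 was lower at 12 weeks in all 4 groups and CD68 in 3, so that the summed CPM of the 8 immune markers went from 27.5 to 36.5 over the 16 libraries of 6 weeks to 16.6 to 27.8 at 12 weeks. PTPRC and CSF1R stayed at 8 counts or fewer and CD3E, LILRA4 and CLEC4C at 0. Of the 3 endothelial markers PECAM1, CDH5 and VWF, 1, 1, 2 and 2 were lower in the control and at the rising concentrations, PECAM1 in all 4 groups. Of the 3 markers of theca and stroma tested, 2 were lower in each group, ACTA2 and PDGFRA, and DCN passed in none. PECAM1 and PDGFRA passed the filter on low counts only through the 6-week libraries, and such a filter favours a fall. None of the endothelial markers had enough counts to be tested at 12 weeks. CDH1 fell in all 4 groups, EPCAM passed in none, and MKI67, TOP2A or CCNB1 rose in each. Of the 10 granulosa cell markers tested, 3, 5, 3 and 4 were lower and 1, 0, 1 and 2 higher in the control and at the rising concentrations, with CYP11A1 lower in all 4 groups and WT1 higher in the control and at 0.1 and 1 µM. The part of these in the fall of the ISGs was not tested.

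PFOS against the control of the same time was a much smaller contrast. At 6 weeks and 0.1 µM, 2 of 37 members passed, with IFIT1 higher and IRF1 lower, while 4.24% of all genes passed. No member passed at 0.01 µM, where 0% of genes passed, or at 1 µM, where 0.28% did. At 12 weeks no member of 34 passed at any concentration, and, in rising order, 0%, 1.07% and 0.22% of genes did. With edgeR's test, 4, 12 and 4 members had an unadjusted p under 0.05 at 6 weeks, and 2, 10 and 4 at 12 weeks, in the order of concentration. Of all genes, 9.6%, 20.8% and 13.7% did at 6 weeks and 8.48%, 15.4% and 8.75% at 12 weeks. DESeq2 called IRF1 and IFITM2 at 0.1 µM and 6 weeks and 1 member, IFITM2, at 1 µM and 6 weeks, with 0 at 0.01 µM and at 12 weeks.

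IRF1 had 54.3, 52.6, 49.5 and 48.4 CPM in the control at 6 weeks and 43.3, 42.99, 46.3 and 42.5 at 0.1 µM, where all 4 libraries were below the control. Its log2 change was −0.23 ± 0.058 SE, adjusted p = 0.0300, and the exact two-sided permutation test of log2(CPM + 1) gave p = 0.0286, the smallest that 4 against 4 libraries can give. At 0.01 µM it had 50.4, 54.9, 52.6 and 52.8 CPM and at 1 µM 54.7, 57.2, 55.9 and 44.9, both overlapping with the control. At 12 weeks the 0.1 µM libraries held 29.9, 26.3, 25.9 and 23.5 CPM, again below all 4 of the control, but the change did not pass (log2 change −0.28 ± 0.10 SE, adjusted p = 0.201). The call at 6 weeks was lost without replicate 1, 2 or 3 (adjusted p 0.162, 0.0810 and 0.119) and in the fit of all 32 libraries (0.179).

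IFIT1 had 14.98, 14.7, 13 and 13.1 CPM in the control at 6 weeks and 18.2, 16.9, 16.8 and 14.9 at 0.1 µM, and only replicate 4 of the latter lay within the control's range. The log2 change was 0.26 ± 0.074 SE, adjusted p = 0.0478, and the exact permutation p was 0.0571. At 12 weeks the 0.1 µM libraries held 12.1, 12.5, 12.1 and 12.1 CPM against 13.02, 13.5, 12.6 and 14.03 in the control, below it without overlap (log2 change −0.13 ± 0.12 SE, adjusted p = 0.640). At 0.01 µM and 12 weeks, replicates 3 and 4 had 20.2 and 17.1 CPM, above all other 12-week libraries. The call was lost when any replicate was left out (adjusted p 0.0713 to 0.240), with DESeq2 (0.0601), in the fit of the 8 libraries (0.0527) and in that of all 32 (0.194).

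The 3 members next in order of p did not pass in the test as fitted. EPSTI1 had 31.04, 34.8, 37.6 and 33.9 CPM at 0.01 µM and 36.8, 33.8, 33.02 and 33.95 at 0.1 µM after 6 weeks, against 29.97, 31.4, 29.6 and 29.97 in the control. Its log2 change was 0.18 ± 0.056 SE, adjusted p = 0.390 at 0.01 µM and 0.18 ± 0.056 SE, adjusted p = 0.0624 at 0.1 µM, where the groups did not overlap. STAT2 had 70.3, 72.6, 71.02 and 67.5 CPM at 0.1 µM against 62.4, 67.5, 61.4 and 63.5, a change of 0.14 ± 0.044 SE, adjusted p = 0.0624 and its lowest library equalled the highest of the control. XAF1 had 11.7, 10.3, 9.49 and 10.1 CPM at 1 µM against 8.37, 9.42, 8.48 and 7.89, without overlap (0.28 ± 0.088 SE, adjusted p = 0.145). With the vial as a block, 4 members in place of 2 passed at 0.1 µM and 6 weeks, IFITM2 and IFI27 joining IFIT1 and IRF1, and IFITM1 passed at 0.1 µM and 12 weeks (adjusted p = 0.0456). At 0.1 µM and 6 weeks, IFITM2 (0.0280), STAT2 (0.0461) and BST2 (0.0410) passed without replicate 2, and IFITM2 (0.0177), EPSTI1 (0.0388) and IRF1 (0.00924) in the fit of the 8 libraries. At 12 weeks the nearest to the threshold was IFIT2 at 0.1 µM, with 4.02, 4.22, 4.46 and 3.64 CPM, below all 4 control libraries (−0.45 ± 0.14 SE, adjusted p = 0.125).

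Below the threshold, signs differed between the times. At 6 weeks 27, 27 and 27 of 37 members had a log2 change above 0 at 0.01, 0.1 and 1 µM, with medians of 0.062, 0.11 and 0.078. At 12 weeks 21, 29 and 27 of 34 were below 0, with medians of −0.077, −0.13 and −0.070. Of all genes tested, 51.1%, 50.1% and 49.4% were above 0 at 6 weeks and 51.1%, 48.1% and 48.3% at 12 weeks. The 3 comparisons of a time share their control libraries, so a deviation of those 4 libraries moves all of them. Liver transcripts differed between the control and 0.1 or 1 µM at 6 weeks, as given above, and their part in the shift was not tested.

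**Figure D2:**
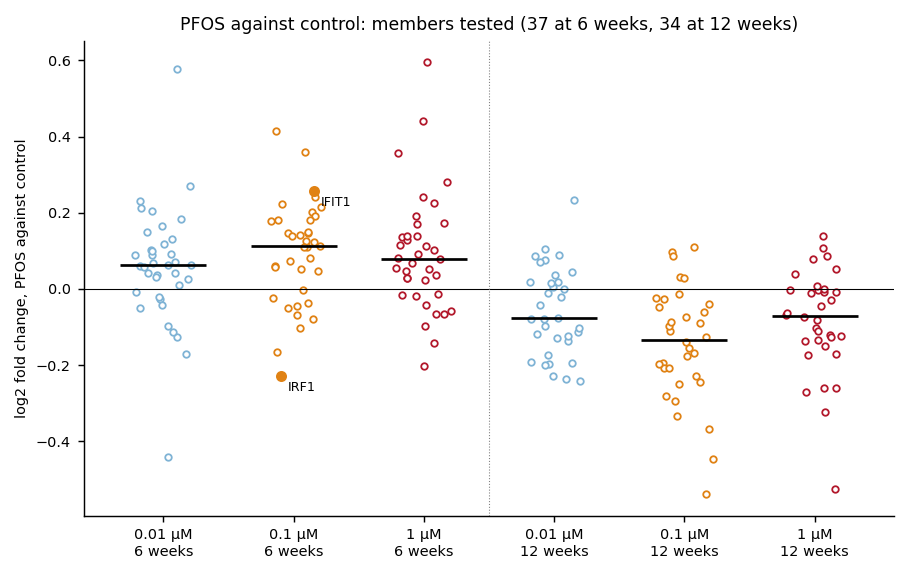
Log2 fold change of PFOS against the control of the same time for the members tested (37 at 6 weeks, 34 at 12 weeks), with the median as a bar and filled points at an adjusted p of at most 0.05. Medians lie above 0 at 6 weeks and below 0 at 12 weeks, and IFIT1 and IRF1 at 0.1 µM are the filled points.

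Whether the PFOS effect differed between the times was tested as an interaction over all 32 libraries. No member passed at any concentration, and, in rising order, 0%, 0.208% and 0.123% of genes did. Differences lay below 0 for 30, 35 and 29 of 37 members, with medians of −0.10, −0.22 and −0.12. Of all genes tested, 52.5%, 49.7% and 49.9% had a difference above 0. The differences at the concentrations share their control libraries, so a deviation of those moves all of them. The unadjusted p was under 0.05 for 2, 13 and 7 members, and for 7.48%, 14.5% and 12.1% of all genes. The nearest to the threshold at 0.1 µM was IFI6, with 23.7, 22.5, 22.97 and 20.6 CPM in the control and 29.1, 25.5, 26.1 and 22 at 0.1 µM after 6 weeks, and 16.7, 15.7, 18.4 and 18.3 and 14.8, 14.99, 16.2 and 12.2 after 12 weeks. Its difference was −0.44 ± 0.12 SE, adjusted p = 0.0846. IFI27 followed with −0.57 ± 0.15 SE, adjusted p = 0.0908 and IFIT2 with −0.59 ± 0.17 SE, adjusted p = 0.102. DESeq2 gave 13 members an adjusted p at 0.1 µM and called 2 of them lower, IFI27 (adjusted p = 0.0178) and IFITM3 (0.0491). With the vial as a block IFITM3 passed as well (0.0464).

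For each library, the median deviation of the 37 members from their own means over 32 libraries was taken on the log2(CPM + 1) scale. At 6 weeks the control libraries spanned 0.047 to 0.13, those with 0.01 µM 0.083 to 0.21, with 0.1 µM 0.12 to 0.23 and with 1 µM 0.12 to 0.21. At 12 weeks the control spanned −0.20 to −0.061, and the rising concentrations −0.21 to −0.11, −0.25 to −0.18 and −0.19 to −0.090. All libraries of 6 weeks lay above 0 and all of 12 weeks below it, and within a time the range of each PFOS group overlapped with that of the control. Set against the control of the same replicate number, taken as its own vial, the library with 0.1 µM was higher in 4 of 4 vials at 6 weeks and lower in 3 of 4 at 12 weeks. At 0.01 and 1 µM it was higher in 3 of 4 vials at 6 weeks and lower in 2 of 4 at 12 weeks.

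Around the members, 62 further genes of the pathway had values. Ligands were near absent, with 0 to 1 counts per library for IFNB1, IFNL1 and IFNL3, 0 for IFNK and 0 to 8 for IFNE. Receptors and signalling proteins were present, with means of 20.98 TPM for IFNAR1, 11.4 for IFNAR2, 42.1 for JAK1 and 51 for TYK2. Between the times, 20 of 55 were lower and 5 higher in the control, 26 and 2 at 0.01 µM, 36 and 2 at 0.1 µM, and 20 and 3 at 1 µM. STING1, the adaptor of cytosolic DNA sensing, changed by −0.30, −0.65, −0.83 and −0.59 in the order of the groups, RIGI, the sensor of short RNA ends, by −0.31, −0.42, −0.42 and −0.31, and APOL1 by −1.03, −1.37, −1.19 and −0.98, each past the test in all 4. The shares of all genes that were lower were 19.3%, 21.3%, 20.6% and 15.9%. Of the PFOS comparisons, with 54 genes tested at 6 weeks and 55 at 12 weeks, 0.1 µM at 6 weeks had calls, for 3 of 54 (5.56%), near the 4.24% of all genes: PML, the scaffold of nuclear bodies, was higher (0.19 ± 0.034, adjusted p = 0.00432), SOCS3, a feedback inhibitor of JAK kinases, was higher (0.48 ± 0.091, adjusted p = 0.0158) and MYD88, an adaptor of Toll-like receptors, lower (−0.14 ± 0.039, adjusted p = 0.0414). The interaction passed for PSMB9, a subunit of the immunoproteasome, at 0.1 µM (−0.53 ± 0.12, adjusted p = 0.0462).

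Covariation of members from library to library was taken once the group means were removed. Over the 32 libraries, which share depth and scaling, the median Pearson r of the 666 pairs of members was 0.18, and 78.1% of pairs were above 0. Over all pairs of the 12988 genes tested the median r was −0.00054, and 49.9% were above 0. The closest pairs were IFITM2 with IFITM3 (r = 0.84), which also share reads, IFI27 with TRIM22 (0.78), IFIT2 with TRIM22 (0.77) and IFI27 with ISG15 (0.76). IFITM1 had the highest median r with the other members (0.41), whereas IRF1 and IRF7 had medians near 0 (0.0085 and −0.018). Without replicate 3 of the 12-week control the median r was 0.19.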

How the data were processed

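The 32 libraries hold mRNA of the HGrC1 line. The authors sequenced stranded poly(A) libraries on a DNBSEQ platform. Per the labels, HISAT2 2.0.4, Bowtie2 2.2.5 and RSEM 1.2.8 were used with GRCh38.p14. The authors deposited estimated counts per gene without normalization, and TPM values, which are scaled for gene length and depth. Deposited FPKM and normalized values were not used. Estimated counts were rounded (7.67% of values were not whole). Groups came from the sample labels, and 0 columns were left unmapped. Of 48 replicate pairs, 0 were identical.

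Counts were tested with edgeR 4.0.16 (robust quasi-likelihood, TMM, filterByExpr, two-sided) in R 4.3.3 with limma 3.58.1, over the 16 libraries of a time for PFOS and all 32 for time and interactions, with Benjamini-Hochberg adjustment over all genes. The step was tested on simulated data, where the limit first set for recovery of changed genes was missed by the comparison of times and, by far more, by the interaction, and was then replaced by limits on bias, sign, false calls and recovery at higher counts. CPM used TMM-scaled totals. Alternatives were DESeq2 1.42.0 and its size factors, other filters, replicate blocks, other sets of libraries, each replicate left out, and, chosen after seeing the data, replicate 3 of the 12-week control left out. Intervals of counts are not given, and reads lack molecular identifiers, so errors are those between libraries. Python 3.11.15, numpy 2.4.6, pandas 2.3.3, scipy 1.17.1 and matplotlib 3.10.9 were used for the rest.

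The members and lists were chosen with earlier results of these data known. Members shown library by library were those called in a PFOS comparison, the 5 with the lowest unadjusted p over those 6 comparisons, for each comparison of times (over 12 called) the 6 called members of largest log2 change whose mean was 10 counts or more, and the tested member of highest TPM in each role. Positions are those of the files. IFI6 and other members beyond the rule were added after their values were seen. The paper states that the cells of each vial were subcultured into the 4 treatments. Equal replicate numbers in the sample titles were taken to mark a shared vial, and this was not tested. With group means removed, libraries of one number correlated at a mean r of 0.042 to 0.081 at 6 weeks and −0.082 to 0.15 at 12 weeks. Between the times, libraries of one number and treatment correlated at a mean r of 0.022 to 0.074.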

Additional observations from a re-analysis of the deposited data

Results flagged for a closer look

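In 9 of 168 groups of 4 libraries, over the 21 members chosen for values by library, the highest or lowest library stood apart from the other 3 by Dixon's ratio. Chance alone marks about 1 in 20 groups. IFIT1 had 12.5 CPM in replicate 2 of 0.1 µM PFOS at 12 weeks, against 12.09 to 12.11 in the other 3 libraries. STAT2 had 52.4 CPM in replicate 4 of the control at 12 weeks, against 54.93 to 55.35 in the other 3 libraries. XAF1 had 7.21 CPM in replicate 4 of the control at 12 weeks, against 5.57 to 5.796 in the other 3 libraries. OAS1 had 0.819 CPM in replicate 3 of the control at 12 weeks, against 0.3312 to 0.3879 in the other 3 libraries. ISG15 had 15.4 CPM in replicate 3 of the control at 6 weeks, against 18.46 to 18.66 in the other 3 libraries. IFIT3 had 19.1 CPM in replicate 1 of 0.1 µM PFOS at 6 weeks, against 14.07 to 14.86 in the other 3 libraries. IFIH1 had 8.001 CPM in replicate 2 of 1 µM PFOS at 6 weeks, against 9.736 to 10.04 in the other 3 libraries. SAMD9 had 7.47 CPM in replicate 1 of 1 µM PFOS at 12 weeks, against 6.239 to 6.311 in the other 3 libraries. LGALS3BP had 453 CPM in replicate 2 of 1 µM PFOS at 6 weeks, against 515.9 to 525 in the other 3 libraries. Of these, 2 are replicate 4 of the 12-week control and 2 are replicate 2 at 1 µM and 6 weeks.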

How the results depend on the processing

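The counts of members called between the times, in either direction, stayed within 1.5 times the value in the text under all alternatives run. They were 15 to 20 in the control (18 without replicate 3 of the 12-week control), 21 to 25 at 0.01 µM, 27 to 32 at 0.1 µM and 17 to 27 at 1 µM. IFITM2 was higher in the control with the vial or the culture as replicate block, and IFIT5 at 0.01 µM without replicate 1. PFOS counts were less stable. At 0.1 µM and 6 weeks, 2 members became 4 with the vial as replicate block and 0 in one fit of all 32 libraries, and 0 to 3 when a replicate was left out (0 without replicate 1 or 3, 1 without 4, 3 without 2). At 1 µM and 6 weeks, 0 became 1 with DESeq2, and 0 to 1 when a replicate was left out (IFITM2 without replicate 2). At 0.1 µM and 12 weeks, 0 became 1 with the vial as replicate block (IFITM1) and 1 with all 32 libraries (IFIT2). For the interaction, 0 became 2 with DESeq2 and 1 with the vial as replicate block at 0.1 µM, and 0 to 1 at 1 µM when a replicate was left out (IRF1 without replicate 4). The block changed no other count by over 1.5 times. The causes were not tested. The interaction compares 4 groups of 4 libraries and in simulated data missed many changes of a size that the other comparisons found, so its lack of calls does not show that the effects were alike.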
